A study of Mus musculus with 2 samples.

Results

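The protocadherins of the neonatal mouse brain were examined through their ribosome footprints, the short stretches of mRNA that a translating ribosome shields from nuclease. Members were the genes whose symbol begins with Pcdh and that have at least 1 protein coding transcript in the deposited table. This gave 67 genes with 181 transcripts among 45578 genes in all: 13 Pcdha, 22 Pcdhb and 20 Pcdhg genes, which together are called clustered, and 12 numbered genes. Pcdhgb8, annotated as a polymorphic pseudogene, was left out and had 52 footprints in replicate 1 and 120 in replicate 2. Pcdha10 and Pcdhgc4 were not analysed here. In the RefSeq gene table of assembly GRCm38.p6, the clustered genes lay on chromosome 18 together with the numbered genes Pcdh1 and Pcdh12, which made 57 of the 67 members. Pcdh8, Pcdh9, Pcdh17 and Pcdh20 lay on chromosome 14, Pcdh10 and Pcdh18 on chromosome 3, Pcdh7 on chromosome 5, Pcdh15 on chromosome 10, and Pcdh11x and Pcdh19 on the X chromosome.

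Both samples were brains of control mice at postnatal day 5, biological replicates 1 and 2 of a single group (n = 2). The animals had the genotype Smn+/-; SMN2tg/0 on the FVB strain, so each carried 1 disrupted copy of Smn and a human SMN2 transgene, and no sample without these alleles was analysed here. Footprints were taken from pooled polysome fractions of a sucrose gradient (Poly-RIBOseq). The libraries held 1866831 footprints in replicate 1 and 5261878 in replicate 2, and levels are given as CPM, footprint counts scaled to a common library size. A gene at 0 could have had up to 1.61 CPM in the first library and 0.570 CPM in the second, the worth of 3 counts. Duplicates were not told from separate molecules, so each interval, floor and p-value here covers counting error alone, and p-values measure only the difference between these samples. The tissue is a mixture of cell types, and fewer cells of a type and less RNA per cell cannot be told apart.

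Protocadherins are the largest branch of the cadherin family of adhesion proteins. In the alpha and gamma clusters each mRNA joins 1 of many variable first exons, which encode the extracellular and transmembrane parts, to constant exons that encode a shared cytoplasmic tail. Beta genes are single exons with no constant part. Neurons choose a few variable promoters each, with the help of CTCF and cohesin, and the resulting set of surface proteins lets a neuron tell its own branches from those of others. The C-type genes at the end of the alpha and gamma clusters are used more uniformly across neurons. The numbered genes lie outside the clusters and are divided into delta-1 genes (Pcdh1, Pcdh7, Pcdh9, Pcdh11x), delta-2 genes (Pcdh8, Pcdh10, Pcdh17, Pcdh18, Pcdh19) and others (Pcdh12, Pcdh15, Pcdh20). Delta genes are known for regional patterns of expression and for roles in axon growth and synapse formation.

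Protocadherins took the same small share of ribosome footprints in both brains. The 67 genes held 0.350% of the first library (exact 95% binomial interval, Clopper-Pearson, 0.341 to 0.358) and 0.350% of the second (0.345 to 0.355). The 12 numbered genes had a share of 0.179% ± 0.00123 (SD, n = 2), close to the 0.170% ± 0.00132 of the 55 clustered genes. Within the clusters, Pcdhg genes led with 0.0987% ± 0.00197, followed by Pcdha genes with 0.0417% ± 0.00108 and Pcdhb genes with 0.0301% ± 0.00173. The spread between the replicates was smaller than each of these steps between the 3 clusters. With protein coding transcripts only, the shares were 0.221% for numbered genes, 0.0886% for Pcdhg, 0.0488% for Pcdha and 0.0398% for Pcdhb.

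Levels of different genes were compared as CPM per kilobase (kb) of the longest annotated coding sequence. Numbered genes had a median of 48.9 CPM per kb, against 10.5 for Pcdha, 5.88 for Pcdhb and 11.02 for Pcdhg. The median of the 13317 protein coding genes that reached a mean count of 10 was 23.5 CPM per kb. Of the numbered genes, 8 of 12 lay above that median, and of the clustered genes 3 of 55. These were Pcdhgc3, Pcdhga8 and Pcdhac2. Pcdhb genes were the lowest group by median, and as means none of the 22 exceeded the Pcdha median. The same held with coding transcripts only and in replicate 2 alone. In replicate 1 alone Pcdhb22 exceeded it, at 10.1 against 9.47. Pcdhb7 did so with only the highest transcript of each gene, at 17.3 against 11.4. Per transcript length Pcdhb2 did so, at 7.48 against 6.02. The coefficient of variation of Pcdhb genes was the lowest, at 35.1%, against 58.5% for Pcdha, 108% for Pcdhg and 81.6% for numbered genes.

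**Figure D1:**
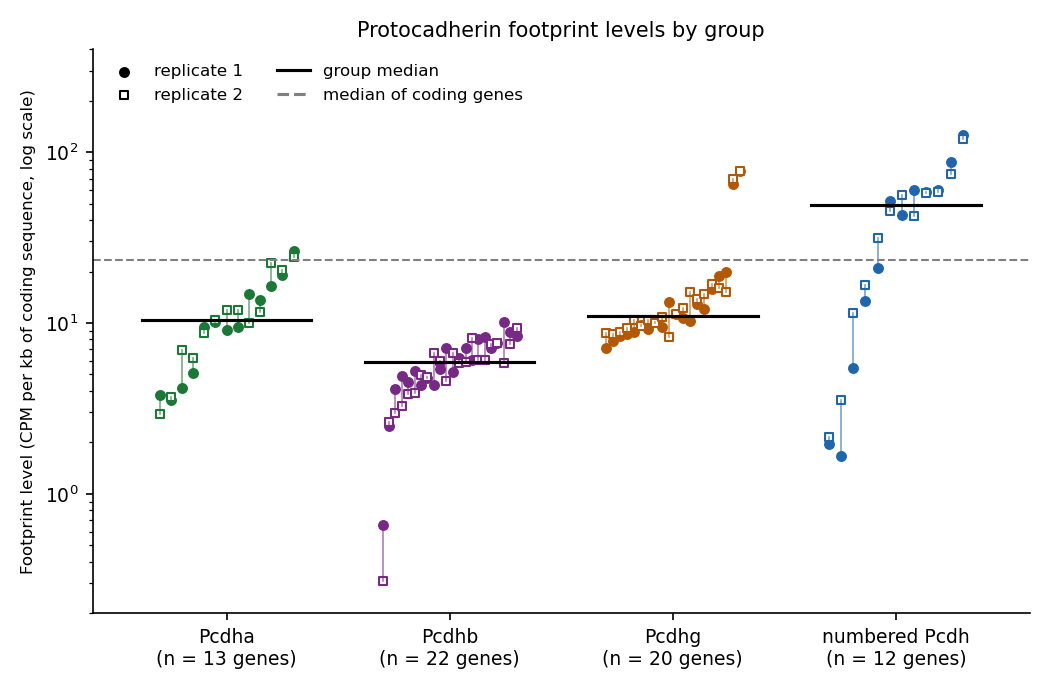
Footprint level of each protocadherin gene in CPM per kb of coding sequence (log scale), by group; filled circles are replicate 1, open squares replicate 2, black lines group medians, and the dashed line the median of coding genes at 23.5. Most clustered genes lie under the dashed line, apart from the Pcdhg genes Pcdhgc3 and Pcdhga8, which lie near the upper numbered genes, and Pcdhac2 just above it.

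Pcdh10 (ENSMUSG00000049100), a delta-2 gene that binds the WAVE actin regulator, was the highest protocadherin on this scale. Summing counts per transcript length put Pcdh1 first, at 90.6. Pcdh10 had 743 footprints in replicate 1 and 1997 in replicate 2, or 125 and 120 CPM per kb, with a mean of 122 ± 4.12 (SD, n = 2). Its mean level was at percentile 87.4 of the coding genes. Pcdh1 (ENSMUSG00000051375), a delta-1 gene known for roles in epithelial adhesion, followed with 529 and 1274 footprints and a mean of 81.2 ± 9.02 CPM per kb. The replicate ranges of Pcdh10 and Pcdh1 did not overlap, nor did those of Pcdh1 and Pcdh19.

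Pcdh19, Pcdh7, Pcdh17, Pcdh9 and Pcdh8 formed a middle band between 48.6 and 59.0 CPM per kb. Pcdh19 (ENSMUSG00000051323), an X-linked delta-2 gene mutated in an epilepsy that mainly affects females, had 383 and 1054 footprints, or 59.7 and 58.3 CPM per kb. Pcdh7 (ENSMUSG00000029108), a delta-1 gene whose tail binds protein phosphatase 1, had 409 and 1148 footprints, or 58.1 and 57.9 CPM per kb. These neighbours were apart only in the narrow sense that their ranges missed each other, at 58.3 against 58.1. Pcdh17 (ENSMUSG00000035566), a delta-2 gene with roles in axon extension and synapse assembly, had 59.7 CPM per kb in replicate 1 and 42.5 in replicate 2. Pcdh9 (ENSMUSG00000055421), a delta-1 gene, went the other way, with 42.7 and 55.9 CPM per kb. Pcdh8 (ENSMUSG00000036422), a delta-2 gene known for activity-dependent removal of N-cadherin from synapses, had 52.0 and 45.2 CPM per kb. The replicate ranges of Pcdh7, Pcdh17, Pcdh9 and Pcdh8 overlapped with their next neighbours, so their order was not resolved.

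The remaining numbered genes lay near or below the median coding gene. Pcdh11x (ENSMUSG00000034755), an X-linked delta-1 gene, had 20.9 CPM per kb in replicate 1 and 31.3 in replicate 2. Pcdh18 (ENSMUSG00000037892), a delta-2 gene, had 13.5 and 16.7 CPM per kb. Pcdh20 (ENSMUSG00000050505) had 29 and 171 footprints, or 5.43 and 11.4 CPM per kb, with the higher value in replicate 2. Pcdh15 (ENSMUSG00000052613), which encodes a tip link protein of the hair cells of the inner ear, had 18 and 108 footprints, or 1.65 and 3.52 CPM per kb. Pcdh12 (ENSMUSG00000024440), an endothelial protocadherin, had 13 and 40 footprints, or 1.97 and 2.15 CPM per kb. Pcdh15 and Pcdh12 overlapped in their replicate ranges and were the lowest numbered genes, at percentiles 5.60 and 3.75 of coding genes. For comparison, the inner ear genes Tmc1 and Otof had 0 and 14 footprints in replicate 1 and 3 and 37 in replicate 2, and the endothelial gene Cdh5 had 90 and 217.

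**Figure D2:**
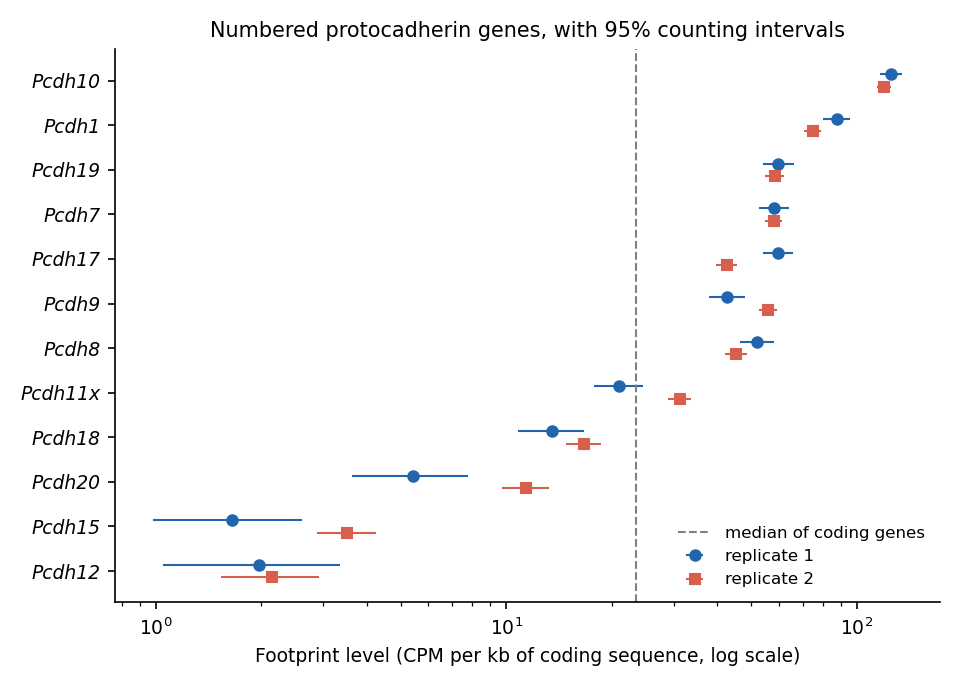
Level of the 12 numbered protocadherin genes in CPM per kb of coding sequence (log scale), as a circle for replicate 1 and a square for replicate 2, with Clopper-Pearson 95% intervals; the dashed line is the median of coding genes. Pcdh10 stands highest in both libraries at 125 and 120, Pcdh17 and Pcdh9 change places between the libraries, and Pcdh15 and Pcdh12 are lowest.

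The 5 delta-2 genes had a larger total than the 4 delta-1 genes in both libraries, with intervals that did not overlap. Per kb of coding sequence, the median was 51.1 CPM for delta-2 and 53.7 for delta-1 genes. It was 59.7 against 50.4 in replicate 1 and 45.2 against 56.9 in replicate 2, so this order changed between the libraries. Delta-2 genes took 0.102% of the footprints in replicate 1 (95% interval 0.0978 to 0.107) and 0.0930% in replicate 2 (0.0904 to 0.0956), and these intervals did not overlap. Delta-1 genes took 0.0745% (0.0706 to 0.0785) and 0.0793% (0.0770 to 0.0818), with overlapping intervals. Pcdh12, Pcdh15 and Pcdh20 together took 0.00321% (0.00245 to 0.00414) and 0.00606% (0.00542 to 0.00677). Pcdh10 alone held 39.8% of the delta-2 footprints as a mean of both replicates, and Pcdh1 34.2% of the delta-1 footprints.

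In the alpha cluster the C-type genes were at opposite ends of the order. Pcdhac2 was the highest alpha gene on this scale, though Pcdha11 was first, at 18.9, when counts were taken per transcript length. Pcdhac2 had 149 footprints in replicate 1 and 387 in replicate 2, or 26.4 and 24.3 CPM per kb. Pcdhac1, the other C-type gene, had 19 and 56 footprints, or 3.52 and 3.68 CPM per kb, and only Pcdha8 had a lower mean. The C-type alpha genes thus differed by 7.06-fold in mean level, and their replicate values were far apart from each other. Pcdha6 followed Pcdhac2 with 19.0 and 20.5 CPM per kb, and Pcdha11 with 16.5 and 22.4, and these 2 overlapped. At the lower end Pcdha7 had 4.19 and 6.96 CPM per kb and Pcdha8 had 3.77 and 2.94. Each of these genes encodes an alternate alpha isoform with its own extracellular domain. The other 7 alpha genes lay between 5.64 and 12.6 CPM per kb as means. The value of Pcdha4, 10.7 CPM per kb, rests on a listed coding sequence of 1923 nucleotides, the shortest of the members, and a shorter length gives a higher value per kb. Of 12 neighbouring pairs in the alpha order, 7 overlapped in their replicate ranges.

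Apart from Pcdhb1, the beta genes lay between 2.57 and 8.85 CPM per kb as means. Pcdhb7 had 39 and 122 footprints, or 8.39 and 9.31 CPM per kb, and Pcdhb16 had 8.89 and 7.57. Pcdhb22 had 10.1 CPM per kb in replicate 1 and 5.82 in replicate 2, so it was the highest beta gene in replicate 1 and near the group median in replicate 2. At the lower end Pcdhb4 had 4.09 and 2.99 CPM per kb and Pcdhb12 had 2.49 and 2.65. Pcdhb1, the first beta gene in the cluster, had 3 footprints in replicate 1 and 4 in replicate 2, a mean of 0.482 ± 0.244 CPM per kb. It was the 1 member under a mean count of 10. The other 16 beta genes lay between 4.09 and 7.64 CPM per kb as means, and 18 of 21 neighbouring pairs overlapped. Beta genes share long stretches of similar sequence, and fragments that match more than 1 of them leave their single counts uncertain.

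In the gamma cluster 2 genes stood apart from the remaining 18. Pcdhgc3, a C-type gene, had 406 and 1148 footprints, or 77.5 and 77.8 CPM per kb, at percentile 80.4 of coding genes. Pcdhga8, an A-type gene, had 344 and 1028 footprints, or 65.2 and 69.1 CPM per kb. The next gene, the B-type Pcdhgb6, had 19.9 and 15.1 CPM per kb, and the replicate ranges of Pcdhga8 and Pcdhgb6 did not overlap. At the lower end Pcdhga5 had 8.42 and 8.83 CPM per kb, Pcdhgb2 had 7.88 and 8.59, and Pcdhga10 had 7.10 and 8.71. All 18 genes from Pcdhgb6 down lay between 7.90 and 17.5 CPM per kb as means, including the C-type gene Pcdhgc5 with 10.2 and 15.2. As in the alpha cluster, the C-type genes were unlike each other, with a 6.11-fold difference between Pcdhgc3 and Pcdhgc5. The median of A-type genes was 11.02 CPM per kb and that of B-type genes 9.87.

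**Figure D3:**
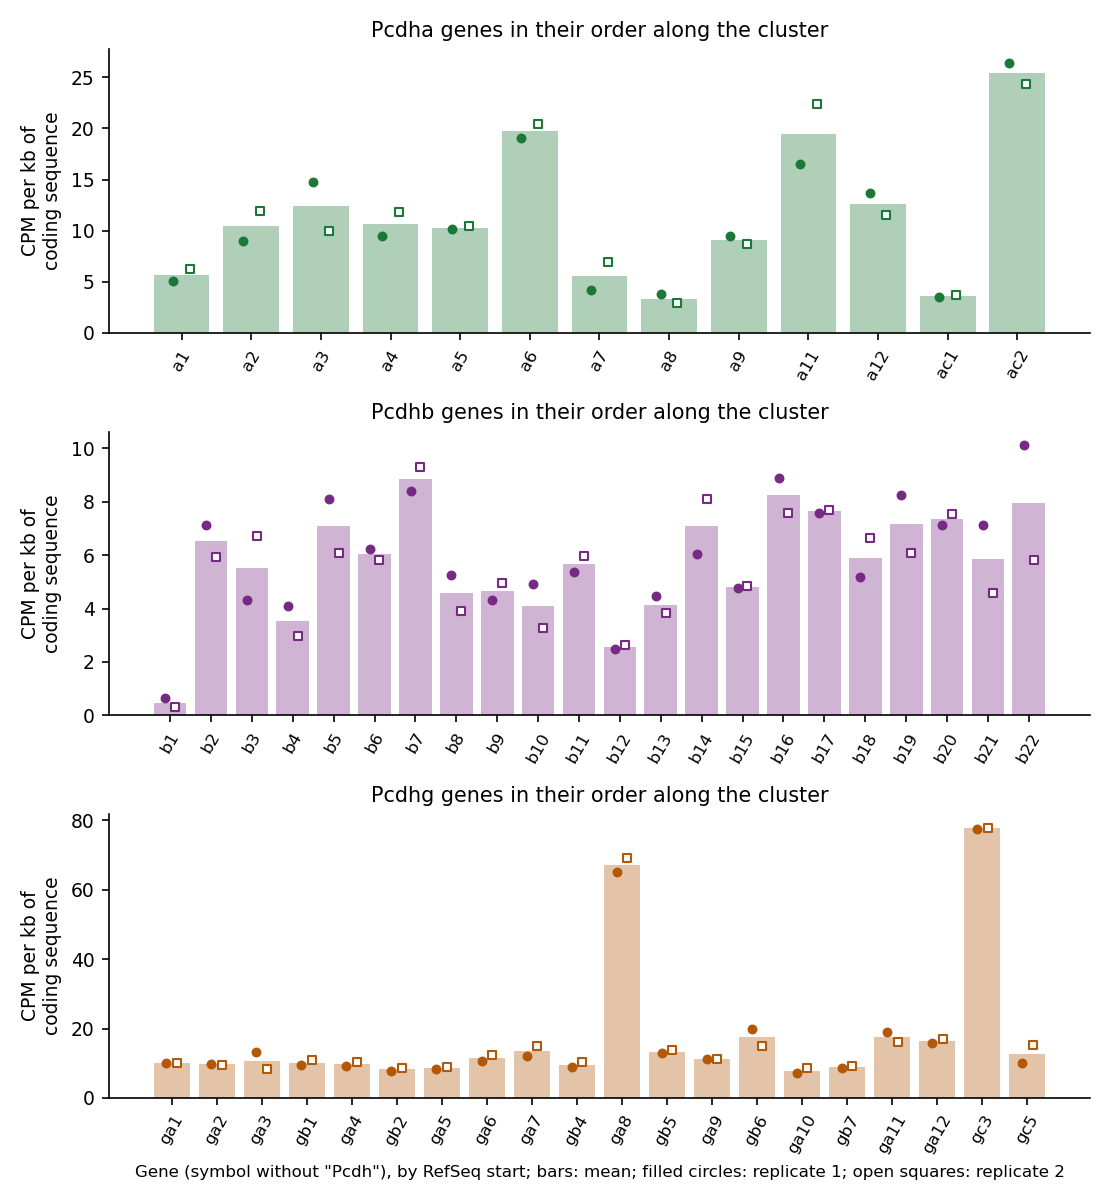
Level of each clustered protocadherin gene in CPM per kb of coding sequence, in the order of the genes along their cluster, with bars for the mean of the replicates, filled circles for replicate 1 and open squares for replicate 2; the vertical scale differs between panels. Pcdhac2, at the end of the alpha cluster, and Pcdhgc3 and Pcdhga8 in the gamma cluster are the tall bars, and the beta genes other than Pcdhb1 lie between 2.57 and 8.85.

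The order of genes along the cluster was weakly related to level for alpha genes, and moderately for beta and gamma genes. Across the 13 alpha genes, Spearman's rank correlation between the order of gene starts and the mean level was 0.16, and across the 11 without the C-type genes it was 0.17. It was 0.43 across the 22 beta genes and 0.45 across the 20 gamma genes, or 0.33 for the 18 gamma genes without Pcdhgc3 and Pcdhgc5. Alpha and gamma genes share constant exons within their cluster and beta genes share similar sequence, so they are not independent points. Between the replicates, Pearson's r of log2(CPM per kb + 1) was 0.965 across the 67 genes and Spearman's rank correlation 0.926, again as descriptions across genes. The rank correlation was 0.944 for numbered genes, 0.830 for Pcdha, 0.782 for Pcdhg and 0.660 for Pcdhb genes. The order within the beta cluster was thus the least alike between the libraries. Beta genes had only 3 to 45 footprints each in replicate 1 and the lowest coefficient of variation in level. The part of counting error in their lower rank correlation was not tested.

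The annotation shows how much the alpha and gamma genes have in common. The same 3' untranslated length, 2401 nucleotides, was listed for a coding transcript of 12 of the 13 alpha genes, and 1744 nucleotides for 16 of the 20 gamma genes. The commonest such length among beta genes, 0 nucleotides, was that of 3 of 26 coding transcripts. A footprint from a constant exon matches the full-length transcripts of a whole cluster, and how it was assigned is not given in the sources used here. The levels of single alpha and gamma genes are uncertain to that extent. The Pcdhga8 transcript 003 has a coding sequence of 396 nucleotides and the common 3' end of 1744, and held 2.59 CPM per kb of transcript in replicate 1 and 3.35 in replicate 2. The full-length transcript 001 had 16.2 and 20.1, and transcript 002, a retained intron form, 31.3 and 28.0. These densities divide by the whole transcript, and most of transcript 003 is untranslated, where few footprints fall, so they do not separate footprints of the constant exons.

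Part of the gamma footprints lay on transcripts that are not annotated as coding. Protein coding transcripts held 67.8% ± 0.145 of the Pcdhg footprints (SD, n = 2), 88.4% ± 2.37 of the Pcdha footprints, 93.3% ± 0.385 of those of numbered genes and 100% of those of Pcdhb genes. All listed Pcdhb transcripts are annotated as protein coding, so their 100% was fixed by the annotation. Retained intron forms held 24.7% ± 0.314 of the Pcdhg footprints. For Pcdhgc3, the coding transcript 001 had 168 and 445 footprints, the retained intron form 002 had 146 and 426, and the form 003, annotated as a target of nonsense-mediated decay, had 92 and 277. These forms can share the variable exon with the coding transcript. Counting coding transcripts only, Pcdhga8 was the highest gamma gene at 45.9 CPM per kb and Pcdhgc3 second, so their order depends on the transcripts counted. Both stayed the top pair of the gamma cluster with coding transcripts only, with the highest transcript per gene, with counts per transcript length and in each replicate alone.

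**Figure D4:**
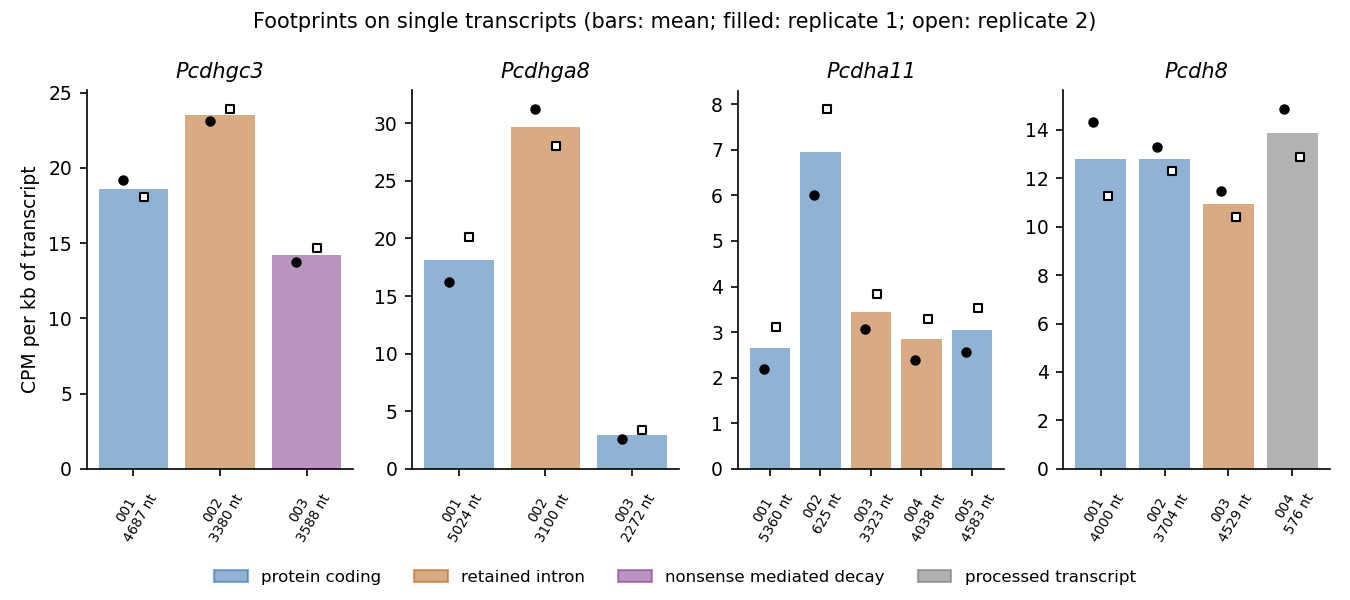
Footprints on single transcripts of Pcdhgc3, Pcdhga8, Pcdha11 and Pcdh8, in CPM per kb of transcript, with bars for the mean, filled circles for replicate 1 and open squares for replicate 2, and the annotated class as colour; the vertical scale differs between panels. Retained intron forms of Pcdhgc3 and Pcdhga8 have the highest density of their gene's transcripts, and Pcdhga8 transcript 003, which is mostly untranslated, has the lowest, at 2.59 and 3.35.

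Footprints of the numbered genes were spread over several isoforms. Pcdh10 had 4 coding transcripts, which held between 160 and 204 footprints in replicate 1 and between 447 and 513 in replicate 2. Pcdh17 had a single transcript with 387 and 777 footprints. Pcdh8 footprints fell on the coding transcripts 001 (107 and 237) and 002 (92 and 240) and on the retained intron form 003 (97 and 248). For Pcdh19, transcript 001 held 56.1% of the gene in replicate 1 and 46.2% in replicate 2, and transcript 004 held 27.2% and 33.6%. Pcdh7 transcripts 001, 002 and 003, which encode different lengths of protein, held 129, 99 and 119 footprints in replicate 1 and 343, 238 and 294 in replicate 2. Isoforms of 1 gene share most of their exons, so these counts show where fragments were assigned and not the level of each isoform. Pcdh15 had 41 transcripts, of which 15 had a footprint in replicate 1 and 34 in replicate 2, and none held more than 8. With the highest transcript per gene, Pcdh17 in place of Pcdh10 was the highest numbered gene, at 99.2 CPM per kb, all its footprints being on 1 transcript.

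With 1 group there was no contrast between conditions, and the replicates were set against each other. Each gene's footprints in the libraries were tested for a departure from the ratio of effective (TMM-scaled) library sizes, two-sided, by the exact binomial test. It compares these 2 libraries and takes no account of variation between animals. Of the 66 members with a mean count of at least 10, 12 (18.2%) were called at an adjusted p under 0.05 (Benjamini-Hochberg over all 16427 genes tested), close to the 17.4% of all genes tested. Of the 66 members, 4 were called higher in replicate 2, against 5.95% of all genes tested, and 8 were called lower, against 11.5%. With library totals in place of TMM, 10 were called, 5 higher and 5 lower, against 19.0% of all genes under that scaling. The median log2 ratio of replicate 2 over replicate 1 was -0.06 for the members and 0.01 for all genes tested. With library totals it was 0.06 for the members. TMM scaling moved log2 ratios of members and other genes alike by -0.13 from library totals. By library totals 28 of the 66 members were lower in replicate 2, against 38.1% of all genes tested. Under TMM scaling the log2 ratio depended on level: the median of coding genes was 0.21 in the lowest decile of level and -0.27 in the highest. In the deciles that held 13 and 23 of the members it was 0.12 and 0.09. Taking only the highest transcript of a gene, 4 members were called, 0 higher and 4 lower, against 9.41% of all genes. With edgeR's exact test and the common dispersion of these libraries 0 were called, against 0.067% of all genes, and 2 had an unadjusted p under 0.05. That dispersion was estimated from both libraries as 1 group, which leaves little room for calls between them.

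Among the numbered genes 8 of 12 were called (66.7%), and among the clustered genes 4 of 54 (7.41%). The share of coding genes called rose with level, from 4.20% in the lowest decile to 58.3% in the highest. The decile with a median of 60.5 CPM per kb had 26.1% called and that with a median of 8.91 had 7.14%. The numbered and clustered genes differ in level in the same direction, and its part in the difference was not tested. Pcdh17 had the smallest p among the members. Its level was 207 CPM in the first library (95% interval 187 to 229) and 148 in the second (137 to 158), with no overlap of the intervals. Its log2 ratio was -0.61 (exact binomial test, adjusted p 1.22e-09). Pcdh1 was lower in replicate 2 at 283 against 242 CPM, with a log2 ratio of -0.35 (adjusted p 6.25e-05, exact binomial test). Pcdh8, at 167 and 145 CPM, and Pcdh10, at 398 and 380 CPM, had log2 ratios of -0.33 and -0.19, but neither was called with library totals.

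Of the numbered genes that were higher in replicate 2, Pcdh20 had 15.5 CPM (95% interval 10.4 to 22.3) and 32.5 CPM (27.8 to 37.8), a log2 ratio of 0.92. Pcdh15 had 9.64 CPM (5.71 to 15.2) and 20.5 CPM (16.8 to 24.8), a log2 ratio of 0.93. Both pairs of intervals were apart. Pcdh11x had 84.1 and 126 CPM, a log2 ratio of 0.45, and Pcdh9 had 159 and 208 CPM, a log2 ratio of 0.26. By the exact binomial test the adjusted p was 0.00665 for Pcdh20, 0.0414 for Pcdh15, 0.00321 for Pcdh11x and 0.0345 for Pcdh9. With no count minimum Pcdh15 and Pcdh9 were no longer called. With the highest transcript per gene, Pcdh17 was the only numbered gene to keep its call, and Pcdh19 was added at a log2 ratio of -0.37. Pcdh17 has 1 transcript, so that setting kept all its counts, while every other numbered gene lost part of its own. Keeping the call there therefore does not set Pcdh17 apart from the others. Under the main setting Pcdh19, Pcdh7, Pcdh18 and Pcdh12 were not called, with log2 ratios of -0.16, -0.13, 0.17 and 0.00.

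The 4 clustered genes called were all lower in replicate 2. Their neighbours in the cluster were not called, though Pcdhb21, next to Pcdhb22, had a log2 ratio of -0.74 on 31 and 56 footprints. Pcdha3 had 78 and 149 footprints and a log2 ratio of -0.68 (adjusted p 0.00791, exact binomial test). Pcdhga3 had 69 and 121 footprints and a log2 ratio of -0.80 (adjusted p 0.00302), and these 2 genes kept their call with the highest transcript per gene. Each has 1 transcript, so that setting tested the same counts again with other scaling. Pcdhgb6 also has 1 transcript and was not called there. Pcdhb22 had 45 and 73 footprints and a log2 ratio of -0.90 (adjusted p 0.0102). Pcdhgb6 had 104 and 222 footprints and a log2 ratio of -0.52 (adjusted p 0.0214), and lost its call with library totals, where the C-type gene Pcdhgc5 was called in its place, higher in replicate 2. Pcdhgc3, Pcdhga8 and Pcdhac2, the highest clustered genes, had log2 ratios of -0.12, -0.04 and -0.24 and were not called.

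**Figure D5:**
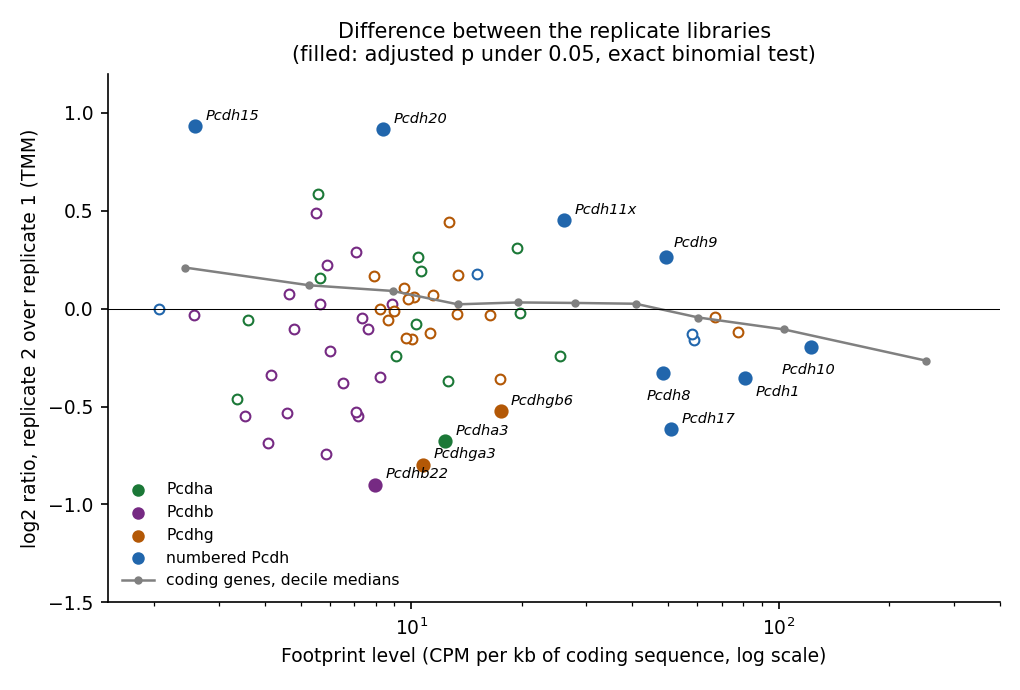
Log2 ratio of replicate 2 over replicate 1 (TMM scaling) against level in CPM per kb of coding sequence (log scale) for the 66 members tested, coloured by group and filled where the exact binomial test called them; the grey line joins the medians of coding genes in deciles of level. Filled points are mostly numbered genes, with Pcdh15 and Pcdh20 the highest at 0.93 and 0.92 and Pcdhb22 the lowest at -0.90.

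Genes that control or work with protocadherins were read from a list of 57 symbols, of which 56 were found. Of these, 15 were called between the libraries, 8 higher and 7 lower in replicate 2, against 17.4% of all genes tested. With library totals 18 were called, 14 higher and 4 lower, against 19.0% of all genes. With the highest transcript per gene 6 were called, 0 higher and 6 lower, against 9.41% of all genes, and Stag1, Cyfip1 and Fat2 were not among them. For promoter choice, Ctcf, the insulator protein that binds the cluster promoters, had 45.9 ± 0.139 CPM per kb (SD, n = 2) and the cohesin subunit Rad21 had 70.7 ± 0.911. Stag1, another cohesin subunit, had a log2 ratio of 0.85, with 67 and 374 footprints, and was 1 of 2 called among 11 genes of that group. Dnmt3b, a DNA methyltransferase that acts on cluster promoters in early embryos, had 6 and 14 footprints. Of 16 genes of signalling and the cytoskeleton 6 were called. Cyfip1, a subunit of the WAVE complex, had 160 and 704 footprints and a log2 ratio of 0.51. Marcks, an actin regulator downstream of protein kinase C, had 1619 and 1981 footprints and a log2 ratio of -1.33. Among the genes of shedding 1 of 4 was called.

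Other members of the cadherin family gave a scale for these levels. The 25 listed genes had a median of 12.6 CPM per kb and ranged from 1.24 for Fat2 to 290 for Clstn1. N-cadherin, Cdh2, had 119 ± 4.73 CPM per kb (SD, n = 2), next to the 122 ± 4.12 of Pcdh10, and their spreads overlapped. The summed level of the 25 listed genes was 3622 CPM in replicate 1 and 3271 in replicate 2. Of the 25, 6 were called, 1 higher and 5 lower in replicate 2. Of all genes tested, 17.4% were called, 5.95% higher and 11.5% lower. With library totals 6 of the 25 were called, 3 higher and 3 lower, against 19.0% of all genes. Fat2, a large cadherin of cerebellar granule cells, had 19 and 117 footprints and a log2 ratio of 0.97. Clstn1, a calsyntenin of axonal transport vesicles, and Celsr2, a receptor of planar cell polarity, had log2 ratios of -0.52 and -0.51.

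The labelled tissue was checked with 5 marker genes each of neurons, astrocytes and radial glia, microglia and endothelium, and none of these was at 0 in both libraries. The neuronal markers summed to 3511 CPM in replicate 1 and 2391 in replicate 2, with Tubb3, Snap25, Syt1 and Stmn2 called lower in replicate 2 under TMM scaling. Rbfox3 was not called. All 5 neuronal markers lie in the highest decile of level per kb. In that decile 58.3% of coding genes were called, and the median log2 ratio was -0.27. Astrocyte and radial glia markers summed to 1601 and 1431 CPM, microglial markers to 190 and 180, endothelial markers to 260 and 215, and markers of meninges and fibroblasts to 1220 and 1130. Choroid plexus markers summed to 614 and 319 CPM, with 94.8% of the first sum from 1 gene, and red cell markers to 1498 and 1055. Within the lists single genes went both ways: CPM was lower in replicate 2 for 4 of 5 neuronal, 3 of 5 astrocyte and radial glia, 3 of 5 microglial, 2 of 5 endothelial, 3 of 5 meningeal and fibroblast, 2 of 3 choroid plexus and 2 of 3 red cell genes. The part of these shifts in the differences between the libraries in protocadherins was not tested.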

How the data were processed

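Polysomal ribosome footprints of 2 control mouse brains (n = 2, 1 group) were analysed. The authors deposited whole-number counts per transcript, 1 column per replicate and not normalized, beside annotated lengths. Trimmomatic 0.36, Bowtie2 2.2.6, SAMtools and the build GRCm38.p4 are named in the submitters' processing notes; the treatment of multiply matching fragments, duplicates and strand is not given in the sources used here. Counts of a gene's transcripts were summed and scaled to the library total (CPM), and divided by the longest annotated coding sequence. TMM factors (edgeR 4.0.16) were 0.957 and 1.04, over genes that reached a mean count of 10, and moved log2 ratios by -0.13 from library totals. Log2 ratios used a prior of 0.5 CPM. The libraries were compared with an exact binomial test (scipy 1.17.1), adjusted over 16427 genes; a quasi-likelihood test needs a contrast. The binomial test was tried on simulated Poisson counts at these depths, with 16162 genes in all. It recovered 57.1% of 98 genes changed 2-fold and 86.6% of 97 changed 4-fold, and called 0.0501% of 15967 unchanged genes. The simulation held no variation between animals, so these rates cover counting error alone and need not hold for these libraries. Alternatives used DESeq2 1.42.0 size factors, library totals, other count minimums, coding or highest transcripts and edgeR's exact test. Intervals are Clopper-Pearson at 95%. Named in full were the numbered genes, the 3 highest and 3 lowest of each cluster, the C-type genes, called members and the 3 highest and lowest called partners. Members and lists were chosen with earlier results of these data known. RefSeq symbols (GRCm38.p6) matched all 67 members and gave chromosomes and gene order. No sequence is printed, as no protein or transcript sequence was used here. Some marker genes are not reported here.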

Additional observations from a re-analysis of the deposited data

How the results depend on the processing

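No paired analysis was possible because the replicates form 1 group, and leaving out a replicate left no library to compare. The number of members called fell from 12 to 4 with the highest transcript per gene (9.41% of all genes). It fell to 0 with edgeR's exact test at the common dispersion (0.067% of all genes), where 2 had an unadjusted p under 0.05. That dispersion comes from the same libraries taken as 1 group, which leaves little room for calls. The partner list fell from 15 to 6 and 0 (3 unadjusted), against the same shares of all genes. Shares of Pcdha, Pcdhb, Pcdhg and numbered genes were 0.0488%, 0.0398%, 0.0886% and 0.221% with coding transcripts only, and 0.0613%, 0.0564%, 0.122% and 0.132% with the highest transcript, where the totals are smaller by construction. Without the 10 most abundant genes, the Pcdhg and numbered shares were 0.101% and 0.183%. In the same order, median levels per kb were 13.6, 7.79, 12.4 and 52.0 with coding transcripts, 11.4, 10.99, 16.7 and 25.1 with the highest transcript, and 6.02, 3.604, 7.61 and 25.2 per transcript length; Pcdhb was 6.01 without the 10 most abundant genes. The numbered genes had the highest median and Pcdhb the lowest in each of these settings. In single replicates the shares ranged from 0.0409% to 0.0425% (Pcdha), 0.0288% to 0.0313% (Pcdhb), 0.0973% to 0.100% (Pcdhg) and 0.178% to 0.180% (numbered), and the medians from 9.47 to 10.4, 5.71 to 5.88, 10.5 to 11.05 and 43.8 to 47.4. The members reaching the count minimum numbered 66 of 67, 67 at a minimum of 1, 53 at 50 and 29 at 100. Replicate 1 limits precision, at 18 footprints for Pcdh15 and 3 for Pcdhb1.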
